A study of Mus musculus with 9 samples.

Results

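Immunoglobulin V segments are the gene pieces that encode most of the antigen-binding domain of an antibody, and 14 of them were followed here in the RNA-seq table of mouse colonic mucosa. Of the 54146 genes listed, 350 carried an Ighv, Igkv or Iglv name, and the 14 were those whose normalized count reached 10 in 2 or more of the 9 mice. They were 4 of 185 heavy chain segments (Ighv3-6, Ighv6-3, Ighv9-3 and Ighv1-74), 8 of 162 kappa segments (Igkv1-110, Igkv1-117, Igkv10-96, Igkv6-15, Igkv19-93, Igkv12-46, Igkv15-103 and Igkv5-39) and 2 of 3 lambda segments (Iglv1 and Iglv2). The mice were C57BL/6J, 15 wk of age, with 5 ApcMin/+ mice (2 female, 3 male) and 4 ApcMin/+; p16cis/cis mice (3 female, 1 male), and each mouse gave 1 library. All 9 mice were heterozygous for the ApcMin germline mutation, which predisposes to intestinal polyps. The 4 mice of the second group, called p16cis/cis mice below, were also homozygous for p16cis, a germline insertion that promotes DNA methylation at the p16 (Cdkn2a) promoter and is not restricted to a cell type by a Cre or a tissue promoter. The labels give the tissue as colonic mucosa, and the methods say that the RNA came from colonic crypts.

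B cells build each antibody chain by joining 1 V segment to J (and, in heavy chains, D) pieces and expressing the product with a constant (C) gene. A heavy chain from the Igh locus pairs with a light chain from the kappa or the lambda locus, and in mice most light chains are kappa. Plasma cells of the gut lamina propria secrete mainly IgA, whose heavy chain constant gene is Igha, and each clone of plasma cells uses a single heavy and a single light V segment. The spread of reads over V segments in bulk RNA therefore mixes the number of B-lineage cells, the RNA per cell and the sizes of clones. Fewer cells of a type and less RNA per cell cannot be told apart in these libraries.

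All 350 V segments matched identifiers of the GENCODE M21 annotation of GRCm38, and the coordinates given here are from that annotation. The 14 are annotated as functional V genes, each with a leader exon and a V exon. The heavy segments lie on chromosome 12, the kappa segments on chromosome 6 and the lambda segments on chromosome 16. Counted from the J segments, the heavy members were the 51st, 60th, 69th and 170th of 185 heavy segments (Ighv9-3, Ighv3-6, Ighv6-3 and Ighv1-74). The kappa members were the 16th (Igkv6-15), 41st, 49th, 109th, 115th, 124th, 131st and 138th (Igkv1-117) of 162. Neither the heavy nor the kappa members thus all lay in a single stretch of their locus. The germline 3′ ends of the V exons are shown because this is where joining takes place. Segments of a chain differ here and elsewhere in the exon. The capitals mark the codon of the conserved cysteine that precedes the third antigen-binding loop.
Ighv3-6 (chr12:114288152-114288171, minus strand): acatattacTGTgcaagaga
Ighv6-3 (chr12:114391712-114391728, minus strand): atttattacTGCacagg
Ighv9-3 (chr12:114140692-114140709, minus strand): acatatttcTGTgcaaga
Ighv1-74 (chr12:115802648-115802665, minus strand): gtctattacTGTgcaata
Igkv1-110 (chr6:68271233-68271267, plus strand): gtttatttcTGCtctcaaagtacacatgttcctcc
Igkv1-117 (chr6:68121793-68121827, plus strand): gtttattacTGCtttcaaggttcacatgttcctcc
Igkv10-96 (chr6:68631963-68631997, minus strand): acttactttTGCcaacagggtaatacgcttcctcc
Igkv6-15 (chr6:70406469-70406503, minus strand): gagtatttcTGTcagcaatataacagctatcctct
Igkv19-93 (chr6:68736297-68736331, minus strand): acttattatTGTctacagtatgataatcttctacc
Igkv12-46 (chr6:69764523-69764557, minus strand): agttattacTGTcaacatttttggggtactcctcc
Igkv15-103 (chr6:68437891-68437925, plus strand): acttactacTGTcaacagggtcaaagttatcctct
Igkv5-39 (chr6:69900424-69900458, minus strand): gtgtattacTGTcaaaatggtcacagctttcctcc
Iglv1 (chr16:19085017-19085052, minus strand): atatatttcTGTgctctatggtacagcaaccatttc
Iglv2 (chr16:19260401-19260436, minus strand): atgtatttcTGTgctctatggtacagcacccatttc

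Reads can be told apart only where segments differ in sequence. The V exons of Iglv1 and Iglv2 were 97.0% identical (9 mismatches in 305 bases), and those of Igkv1-110 and Igkv1-117 were 96.8% identical (10 mismatches in 313 bases). These pairs are shown over 300 bases because they are the members most alike in sequence, and capitals mark the bases at which the members of a pair differ.
Iglv1 (chr16:19085017-19085316, minus strand): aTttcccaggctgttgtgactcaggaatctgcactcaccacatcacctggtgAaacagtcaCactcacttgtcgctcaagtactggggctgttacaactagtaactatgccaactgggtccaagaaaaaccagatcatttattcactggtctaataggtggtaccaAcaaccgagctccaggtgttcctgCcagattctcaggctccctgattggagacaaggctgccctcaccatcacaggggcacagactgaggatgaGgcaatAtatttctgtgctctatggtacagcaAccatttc
Iglv2 (chr16:19260401-19260700, minus strand): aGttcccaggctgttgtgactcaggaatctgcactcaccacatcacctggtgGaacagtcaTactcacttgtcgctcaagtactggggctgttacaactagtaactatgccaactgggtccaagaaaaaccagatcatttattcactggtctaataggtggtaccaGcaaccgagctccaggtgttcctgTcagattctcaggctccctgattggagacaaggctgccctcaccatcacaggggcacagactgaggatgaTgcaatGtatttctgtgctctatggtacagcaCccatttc
Igkv1-110 (chr6:68270968-68271267, plus strand): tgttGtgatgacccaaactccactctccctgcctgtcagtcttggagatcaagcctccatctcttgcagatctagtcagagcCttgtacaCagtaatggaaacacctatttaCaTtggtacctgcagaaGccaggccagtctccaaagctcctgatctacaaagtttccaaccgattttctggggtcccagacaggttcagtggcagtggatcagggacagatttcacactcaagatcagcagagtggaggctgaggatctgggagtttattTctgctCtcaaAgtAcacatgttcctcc
Igkv1-117 (chr6:68121528-68121827, plus strand): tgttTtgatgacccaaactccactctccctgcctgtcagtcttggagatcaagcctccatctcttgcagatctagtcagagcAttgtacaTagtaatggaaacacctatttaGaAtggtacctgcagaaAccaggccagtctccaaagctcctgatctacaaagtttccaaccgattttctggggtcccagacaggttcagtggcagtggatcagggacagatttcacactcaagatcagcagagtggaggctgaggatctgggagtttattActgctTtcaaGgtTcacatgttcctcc
Of all 50-base windows in the V exon, 70.3% of those of Iglv1 and 53.4% of those of Igkv1-110 occurred in no other listed V segment. The share was 100% for Igkv15-103, Igkv19-93 and Igkv5-39, and at least 69.9% for the other members except Igkv1-117 (54.2%). Counts of the paired segments, and of other members that share windows, such as Ighv1-74 (69.9%), are thus partly split by the estimation of the counting tool.

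Reads on genes numbered 13523500 to 17885918 per mouse, and 100% of the positive values were whole multiples of the value of 1 read, within 0.01 reads. V segments were rare at this depth. The 14 members received 54, 238, 249, 10 and 134 reads in ApcMin/+ replicates 1 to 5 and 5, 5, 7 and 7 reads in p16cis/cis replicates 1 to 4. All V segments together received 153, 769, 777, 22 and 407 reads against 12, 21, 24 and 22. ApcMin/+ replicate 4 thus stood apart from the other 4 mice of its group, at the level of the p16cis/cis mice. Mitochondrial genes took 8.74 to 15.6% of reads in ApcMin/+ mice and 19.3 to 29.8% in p16cis/cis mice, without overlap, and their part in the results was not tested.

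The 14 segments were chosen by their values in these same mice, and all 14 passed through ApcMin/+ mice alone. Values of at least 10 occurred for 1, 13, 11, 0 and 9 members in ApcMin/+ replicates 1 to 5 and for none in a p16cis/cis mouse, where the highest value was 6.01 (Igkv6-15 in replicate 3). Of the 56 member values in p16cis/cis mice, 40 were 0. The lower level of the members in p16cis/cis mice is therefore fixed by how they were chosen and is described without a test. Just inside the threshold were Igkv15-103, Igkv12-46 and Igkv5-39, with a second highest value of 10.2, 10.7 and 10.7. Just outside were Ighv1-82 (9.76), Igkv14-111 and Igkv4-72 (both 9.51).

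Among heavy segments, Ighv3-6 had normalized counts of 0, 19.97, 26.3, 3.81 and 7.95 in ApcMin/+ replicates 1 to 5 and 0, 4.79, 0 and 4.70 in p16cis/cis replicates 1 to 4. It was the heavy member with the most reads in p16cis/cis mice (6 of 9), and the groups overlapped. Ighv6-3 had 3.35, 15.2, 13.7, 0 and 15.9 against 0, 0, 0 and 1.57. Ighv9-3 had 1.12, 12.4, 5.85, 0 and 11.4 against 1.26, 0, 1.503 and 0. In both, replicates 2 and 5 were high and replicate 4 was at 0. Ighv1-74 had 0, 11.4, 1.95, 0 and 17.0 and was at 0 in every p16cis/cis mouse. It is a member of Ighv1, the largest heavy V family, and replicate 5 alone held 15 of its 29 reads.

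Among kappa segments, Igkv1-110 had normalized counts of 6.70, 27.6, 33.2, 0 and 9.08 in ApcMin/+ mice and 0, 1.60, 1.503 and 1.57 in p16cis/cis mice. Its near copy Igkv1-117, shown above, had 4.46, 23.8, 20.5, 2.54 and 14.8 against 0, 0, 1.503 and 0. Igkv1-117 was the only member whose 5 ApcMin/+ values all exceeded the 4 p16cis/cis values, which is 1 of 14, beside 8.95% of the 14410 genes tested, and nothing is read from this count. Igkv10-96 had 1.12, 13.3, 41.0, 0 and 3.41 against 1.26, 0, 0 and 0. Its value in replicate 3, 42 reads, was the highest of any member in any mouse. Igkv6-15 had 6.70, 14.3, 17.6, 1.27 and 4.54 against 0, 0, 6.01 and 1.57, so its p16cis/cis replicate 3 lay above ApcMin/+ replicates 4 and 5. The groups overlapped for every kappa member except Igkv1-117.

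Igkv19-93, the only listed segment of its family, had normalized counts of 1.12, 13.3, 16.6, 0 and 11.4 against 1.26, 0, 0 and 0. Igkv12-46 had 2.23, 16.2, 10.7, 1.27 and 10.2 against 2.53, 0, 0 and 0. In both, the single p16cis/cis mouse with reads (replicate 1) was above ApcMin/+ replicates 1 and 4. Igkv15-103 had 0, 6.66, 14.6, 2.54 and 10.2 and Igkv5-39 had 0, 11.4, 10.7, 0 and 1.14, and both were at 0 in every p16cis/cis mouse. A count of 0 in these 4 libraries allows a level of up to 0.201 to 0.222 RPM in each (3 reads of the total, counting error only, with RPM for reads scaled to the library's reads on genes as in CPM).

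Among lambda segments, Iglv1 had normalized counts of 32.4, 27.6, 21.5, 1.27 and 22.7 in ApcMin/+ mice and 0, 1.60, 0 and 1.57 in p16cis/cis mice. It was high in 4 ApcMin/+ mice, replicate 1 included, where the heavy and kappa members were at 6.70 or below. Iglv2 had 1.12, 13.3, 8.78, 0 and 12.5 and was at 0 in every p16cis/cis mouse. Iglv3, the remaining lambda segment, did not meet the rule and held 16 reads over all mice.

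**Figure D1:**
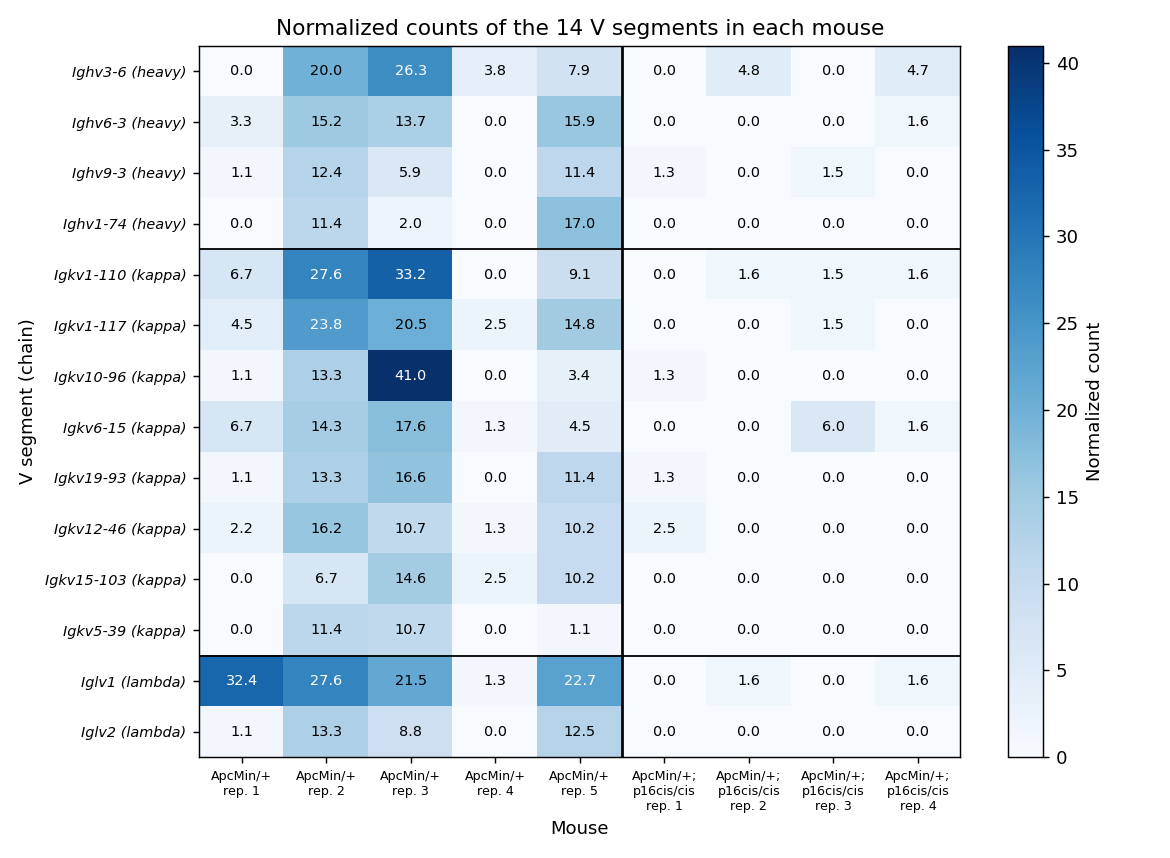
Normalized counts (color and printed value) of the 14 V segments, in rows by chain, in each of the 9 mice, in columns by genotype. ApcMin/+ replicates 2, 3 and 5 carry most of the signal, replicate 1 is high for Iglv1 only (32.4), and ApcMin/+ replicate 4 and the p16cis/cis mice hold values from 0 to 6.01.

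Scaled to exon length (347 to 404 bases) and to the library total (RPKM), Iglv1 had the highest mean level in ApcMin/+ mice, 3.03 ± 1.69 (SD, n = 5). It was followed by Igkv1-110 with 2.19 ± 2.08, Ighv3-6 with 1.90 ± 1.86, Igkv10-96 with 1.89 ± 2.74 and Igkv1-117 with 1.87 ± 1.39, and Igkv5-39 was lowest with 0.780 ± 0.989. Neighbors in this order did not differ beyond the spread between mice. In p16cis/cis mice the highest were Ighv3-6 with 0.312 ± 0.361 and Igkv6-15 with 0.250 ± 0.375 (SD, n = 4).

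Summed over the members, the level in RPM was 3.21, 13.4, 13.9, 0.634 and 8.51 in ApcMin/+ mice (mean 7.93 ± 5.95, SD, n = 5) and 0.336, 0.370, 0.482 and 0.503 in p16cis/cis mice (mean 0.422 ± 0.0822, SD, n = 4). Every ApcMin/+ mouse was above every p16cis/cis mouse, by 0.634 against 0.503 at the closest, and the choice of members fixes this direction. With all 350 V segments included, the level was 9.09, 43.2, 43.4, 1.40 and 25.8 against 0.805, 1.55, 1.65 and 1.58. By this measure ApcMin/+ replicate 4 lay below 3 of the 4 p16cis/cis mice, so the groups overlapped. The 162 detected segments outside the rule were likewise highest in ApcMin/+ replicates 2 and 3 and lowest within that group in replicate 4, with 99, 531, 528, 12 and 273 reads against 7, 16, 17 and 15.

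In the limma fit over the 14410 genes whose normalized count reached 10 in 4 or more mice, 237 genes (1.64%) were lower and 264 (1.83%) higher in p16cis/cis mice at an adjusted p under 0.05 and a fold change over 2. Of the 14 members only Iglv1 passed the filter on low values, and it passed through ApcMin/+ mice alone. It was called lower, but its values had chosen it, so nothing is read from this call or from its size. The log2 difference was set against 0, 1, 0 and 1 reads in p16cis/cis mice and moved from -3.34 with a pseudocount of 1 to -5.13 with a pseudocount of 0.1. The other 13 members were too low to be tested. With values of at least 10 required in 2 mice, 2 members were called lower beside 1.65% of the genes then tested, and with no filter 3 were called lower beside 1.01%, and nothing is read from these counts either.

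The share of each chain in the reads of the members was next compared between mice. In ApcMin/+ replicates 1 to 5 the heavy members took 7.41, 26.1, 19.7, 30 and 34.3% of member reads, the kappa members 37.0, 55.9, 67.9, 60 and 42.5%, and the lambda members 55.6, 18.1, 12.4, 10 and 23.1%. The mean shares were 23.5 ± 10.48% heavy, 52.7 ± 12.7% kappa and 23.8 ± 18.4% lambda (SD, n = 5). Kappa was the largest chain in 4 of the 5 mice, and lambda was the largest in replicate 1, with 30 of 54 reads (95% exact binomial interval 41.4 to 69.1%). In replicate 3 kappa was 67.9% (61.7 to 73.6%), which lies above the interval of replicate 5 (34.0 to 51.4%). These intervals cover counting error only. The mean lambda share without replicate 1 was 15.9%.

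In p16cis/cis mice the member shares rested on 5 to 7 reads each. The heavy share was 20, 60, 14.3 and 57.1%, the kappa share 80, 20, 85.7 and 28.6%, and the lambda share 0, 20, 0 and 14.3%. Their intervals were wide, for example 28.4 to 99.5% for the kappa share of replicate 1. Pooled over the 4 mice, 9 of 24 reads were heavy, 13 kappa and 2 lambda. A difference in chain shares from ApcMin/+ mice was not detectable at this depth.

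Chain shares were also taken over all V segments. The heavy share was 28.8, 37.7, 37.3, 59.1 and 39.3% in ApcMin/+ mice (mean 40.4 ± 11.2%) and 50, 47.6, 41.7 and 40.9% in p16cis/cis mice (mean 45.05 ± 4.46%). The kappa share was 50.5 ± 8.58% against 51.6 ± 3.35%. The lambda share was 21.6, 6.11, 4.505, 4.55 and 8.60% against 0, 4.76, 4.17 and 4.55% (SD, n = 5 and 4). The groups overlapped in all 3 chains. In ApcMin/+ mice together the members held 20.6% of heavy, 32.6% of kappa and 90.1% of lambda V reads, so the rule left out a larger part of the heavy reads than of the kappa or lambda reads.

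**Figure D2:**
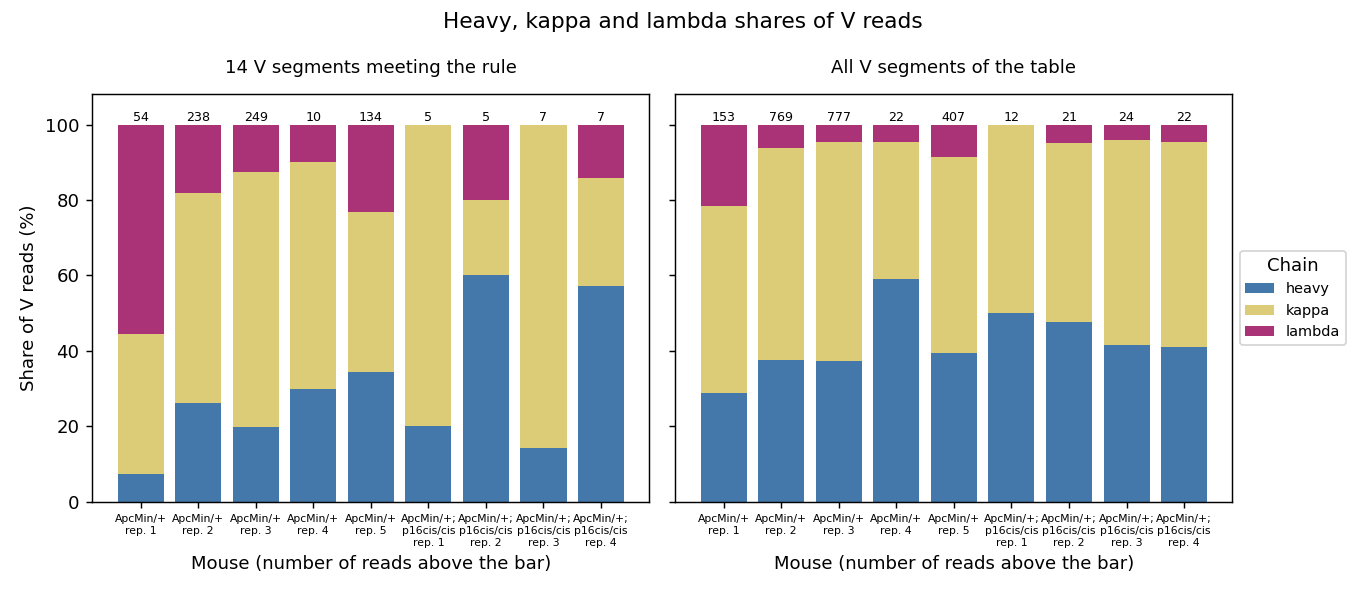
Share of V reads (%) from heavy, kappa and lambda segments in each mouse, for the 14 members on the left and all listed V segments on the right, with the number of reads above each bar. Lambda takes 55.6% of member reads in ApcMin/+ replicate 1 and 10 to 23.1% in the other ApcMin/+ mice, and the p16cis/cis bars on the left rest on 5 to 7 reads.

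The constant genes gave a separate view of the chains, because they did not enter the rule. Heavy C genes took 60.6 to 66.1% of C reads in ApcMin/+ mice and 47.9 to 61.5% in p16cis/cis mice. Igkc, the kappa constant gene, took 29.8 to 34.8% against 35.2 to 49.7%, without overlap. The nearest mice were ApcMin/+ replicate 1 (325 of 933 C reads, 34.8%) and p16cis/cis replicate 2 (95 of 270, 35.2%). No test was made, and nothing is read from the lack of overlap. Lambda C genes took 2.29 to 4.61% against 1.93 to 5.17%. C genes differ in length, so these are shares of reads and not of molecules. Within light chain C reads, lambda was 6.74 to 12.8% in ApcMin/+ mice and 4.62 to 10.8% in p16cis/cis mice, and the groups overlapped.

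The lambda excess of ApcMin/+ replicate 1 lay mainly in a single segment. Iglv1 held 29 of its 33 lambda V reads, Iglv2 held 1 and Iglv3 held 3. In replicates 2, 3 and 5 Iglv1 held 29 of 47, 22 of 35 and 20 of 35 lambda V reads, and Iglv2 held 14, 9 and 11. In their total lambda share, the constant genes of this mouse did not stand apart from those of replicate 5. Lambda made up 30.3% of its light chain V reads but 11.7% of its light chain C reads, below the 12.8% of replicate 5, and lambda C genes took 4.61% of its C reads against 4.37% in replicate 5. Iglc1, the constant gene with which Iglv1 is usually joined, took 32 of 43 lambda C reads in replicate 1 (74.4%, exact interval 58.8 to 86.5%), against 34 of 97 (35.1%, 25.6 to 45.4%), 58 of 117 (49.6%, 40.2 to 59.0%) and 43 of 97 (44.3%, 34.2 to 54.8%) in replicates 2, 3 and 5. The interval of replicate 1 lay above those of replicates 2 and 5 and slightly overlapped that of replicate 3. In ApcMin/+ replicate 4, all 5 lambda C reads were Iglc1, and in p16cis/cis mice Iglc1 was 3 of 8, 6 of 9, 9 of 24 and 4 of 7.

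Dominance of single segments was measured in mice with at least 20 reads of a chain, a limit that only ApcMin/+ mice met. Among heavy members, the leading segment was Ighv3-6 in replicate 2 (21 of 62 reads, 33.9%) and in replicate 3 (27 of 49, 55.1%), and Ighv1-74 in replicate 5 (15 of 46, 32.6%). The effective number of heavy members (the inverse Simpson index, 4 if all were used equally) was 3.81, 2.49 and 3.71. Heavy reads were thus most uneven in replicate 3, where the exact interval of the leading share was 40.2 to 69.3%. It overlapped the intervals of replicates 2 (22.3 to 47.0%) and 5 (19.5 to 48.0%).

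Among kappa members, the leading segment changed from mouse to mouse. It was Igkv1-110 together with Igkv6-15 in replicate 1 (6 of 20 reads each), Igkv1-110 in replicate 2 (29 of 133, 21.8%), Igkv10-96 in replicate 3 (42 of 169, 24.9%) and Igkv1-117 in replicate 5 (13 of 57, 22.8%). The effective number was 4.26, 6.90, 6.43 and 6.24 out of 8. Igkv10-96, the leader of replicate 3, held 14 of 133 kappa member reads in replicate 2 and 3 of 57 in replicate 5. No kappa member exceeded 30% of kappa member reads in these 4 mice. Among lambda members Iglv1 led in all 4, with 96.7, 67.4, 71.0 and 64.5%.

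**Figure D3:**
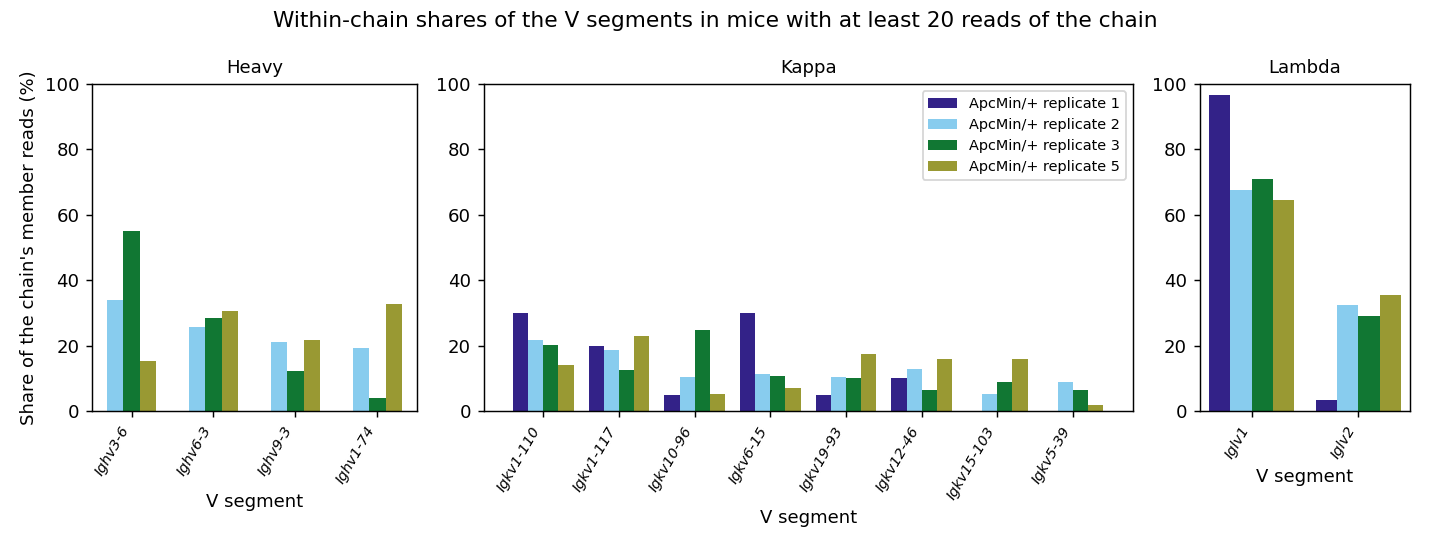
Share (%) of each chain's member reads held by each V segment, as bars for the ApcMin/+ mice with at least 20 reads of that chain (replicates 2, 3 and 5 for heavy, 1, 2, 3 and 5 for kappa and lambda). The leading heavy segment reaches 55.1% (Ighv3-6, replicate 3), the leading kappa segments stay between 21.8 and 30%, and Iglv1 holds 64.5 to 96.7% of lambda member reads.

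Over all V segments a single segment held a small part of the reads in the mice with the most reads. The largest share of all V reads was 3.77% in replicate 2 (Igkv1-110 and Iglv1, 29 of 769 reads each), 5.41% in replicate 3 (Igkv10-96, 42 of 777) and 5.90% in replicate 5 (Igkv8-30, 24 of 407). In replicate 1 it was 19.0% (Iglv1, 29 of 153, exact interval 13.1 to 26.1%), above the intervals of replicates 2 (2.54 to 5.37%), 3 (3.92 to 7.24%) and 5 (3.81 to 8.65%). Several leading segments did not meet the rule because their normalized count reached 10 in a single mouse. Ighv5-17 held 12 of 44 heavy V reads in replicate 1 (27.3%). It held 0.690, 3.10 and 1.88% in replicates 2, 3 and 5, out of the larger totals of 290, 290 and 160 heavy V reads. Ighv7-4 held 30 of 290 heavy V reads in replicate 3 and none in replicates 1, 2 and 5, and Igkv8-30 held 24 of 212 kappa V reads in replicate 5, none in replicate 1 and at most 1.85% in replicates 2 and 3.

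The members held 35.3, 30.9, 32.0, 45.5 and 32.9% of all V reads in ApcMin/+ mice and 41.7, 23.8, 29.2 and 31.8% in p16cis/cis mice. The rest was spread over many segments. Of the 350 listed, 176 had a read in some mouse and 174 had none in any. None was detected in all 9 mice, and the 3 detected in 7 mice were all members. Annotated pseudogenes, 131 of the 350 segments, received 19 reads in total.

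Families showed a similar spread. In the 4 ApcMin/+ mice with enough reads, Ighv1, with 43 of 93 listed segments detected, took a mean of 41.5% of heavy V reads (25.0 to 53.1%), followed by Ighv5 with 15.4% (6.88 to 36.4%). Igkv4 took the most kappa V reads, 19.4% (16.4 to 25.0%), over 24 detected segments of which none met the rule. Igkv1 followed with 15.3% (13.7 to 18.4%) and held Igkv1-110 and Igkv1-117, and Igkv8 took 11.2% (5.26 to 18.4%). Ighv3 ranged from 0 to 12.4% of heavy V reads and Ighv7 from 0.625 to 14.5%, and Ighv6 had a narrower range of 6.82 to 10%.

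Breadth was first counted as the number of segments detected. All 14 members had a read in ApcMin/+ replicates 2, 3 and 5, 10 in replicate 1 and 6 in replicate 4, against 4, 3, 4 and 5 in p16cis/cis mice. With at least 10 reads required, the numbers were 1, 13, 11, 0 and 7 against 0 in every p16cis/cis mouse. Over all V segments, 60, 144, 131, 16 and 107 had a read in ApcMin/+ mice (mean 91.6 ± 53.0, SD, n = 5) and 10, 12, 17 and 14 in p16cis/cis mice (mean 13.2 ± 2.99, SD, n = 4). ApcMin/+ replicate 4 lay within the range of the p16cis/cis mice.

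Breadth was then compared at an equal number of reads. At 12 V reads, the fewest in any mouse, the expected number of different segments was 9.65, 11.2, 11.04, 10 and 10.97 in ApcMin/+ replicates 1 to 5 and 10, 8.72, 9.997 and 9.43 in p16cis/cis replicates 1 to 4. The means were 10.6 ± 0.695 and 9.54 ± 0.605, and the groups overlapped. At 153 reads, which only 4 ApcMin/+ mice had, the expected number was 60, 77.4, 73.5 and 71.1 in replicates 1, 2, 3 and 5. Replicate 1 was the narrowest of the 4. The effective number over all V reads was 17.1 in replicate 1 against 69.2, 58.2 and 51.0 in replicates 2, 3 and 5.

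**Figure D4:**
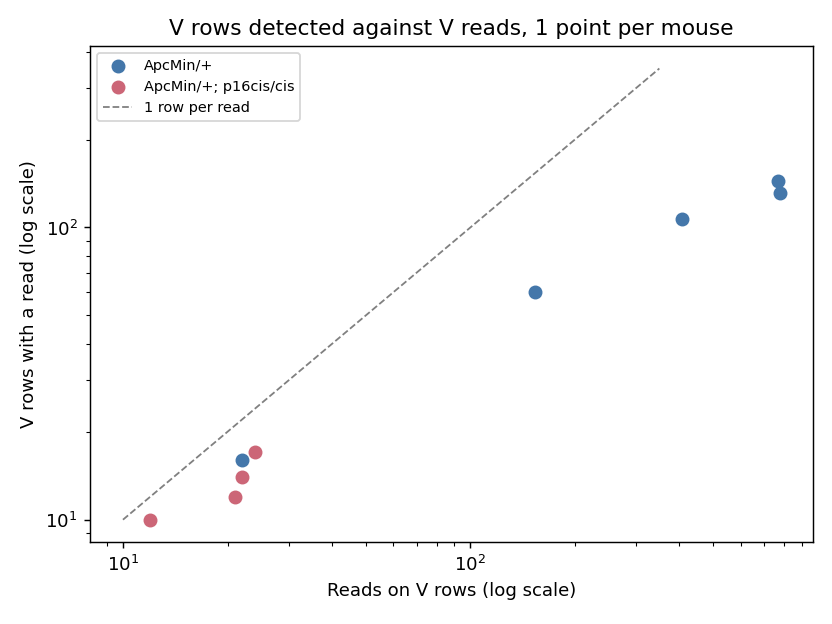
Number of V segments with a read against the number of V reads in each mouse, on log axes, with a dashed line at 1 segment per read. ApcMin/+ replicate 4 (22 reads, 16 segments) lies among the p16cis/cis mice (12 to 24 reads, 10 to 17 segments), and the other 4 ApcMin/+ mice reach 60 to 144 segments.

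Usage of the members was compared between mice by the Bray-Curtis distance of within-chain shares, which is 0 for equal and 1 for disjoint usage. For kappa members the distance between ApcMin/+ mice with at least 20 reads was 0.179 for replicates 2 and 3, the closest pair, and 0.403 for replicates 1 and 3, the most distant (mean of 6 pairs 0.307). For heavy members it was 0.187 to 0.399 over 3 pairs. For lambda members it was 0.0293 to 0.0645 among replicates 2, 3 and 5 and 0.257 to 0.322 between these and replicate 1. The pairs share mice and are not independent, and no p16cis/cis mouse had enough reads to enter.

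V reads were then set against the reads of the constant genes with which V segments are expressed. V reads made up 14.1, 15.3, 15.8, 13.3 and 15.5% of all V and C reads in ApcMin/+ mice (mean 14.8 ± 1.08%, SD, n = 5) and 3.49, 7.22, 4.92 and 5.73% in p16cis/cis mice (mean 5.34 ± 1.56%, SD, n = 4). The groups did not overlap. ApcMin/+ replicate 4, which had the fewest C reads of all mice (144, against 270 to 464 in p16cis/cis mice), was at 13.3%. Its exact interval of 8.50 to 19.4% overlapped those of p16cis/cis replicates 2 (4.52 to 10.8%) and 4 (3.62 to 8.55%). With the members left out of the V reads, the shares were 9.59, 11.1, 11.3, 7.69 and 10.96% against 2.06, 5.59, 3.53 and 3.98%, again without overlap.

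The same order was seen in each chain. In heavy chains V reads were 7.22 to 12.6% in ApcMin/+ mice and 3.64 to 5.68% in p16cis/cis mice. In kappa chains they were 14.04 to 24.4% against 3.51 to 9.52%, and in lambda chains 16.7 to 43.4% against 0 to 12.5%. The exact heavy intervals of ApcMin/+ replicates 1 (5.30 to 9.58%) and 4 (6.89 to 20.6%) overlapped those of every p16cis/cis mouse. So did the kappa interval of ApcMin/+ replicate 4 (8 V reads, 6.26 to 25.8%). The lambda shares of ApcMin/+ replicate 4 and of the p16cis/cis mice rested on 0 or 1 V read. The highest lambda share was that of ApcMin/+ replicate 1, where Iglv1 dominated. J segments received 270 reads in ApcMin/+ mice and 17 in p16cis/cis mice, and the 21 listed D segments received 0. The mitochondrial share of reads, given above, also separated the 2 groups, and its part in the share of V reads was not tested. This measure was added after the reads had been seen, and no test was made.

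**Figure D5:**
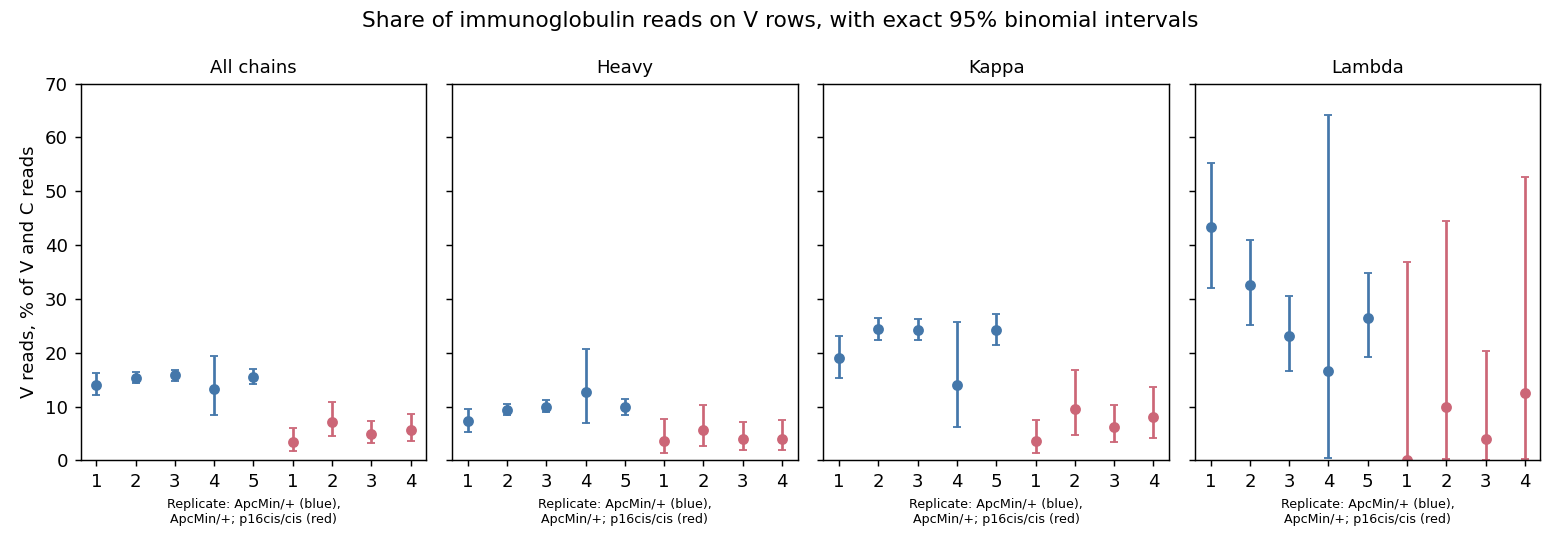
V reads as a percentage of V and C reads in each mouse, for all chains and for heavy, kappa and lambda chains, with exact 95% binomial intervals as bars. Over all chains the ApcMin/+ mice lie at 13.3 to 15.8% and the p16cis/cis mice at 3.49 to 7.22%.

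Other genes of the B lineage were taken from fixed lists. Jchain, which links the units of secreted IgA and IgM, had normalized counts of 77.0, 253, 257, 17.8 and 137 in ApcMin/+ mice and 12.6, 15.95, 16.5 and 18.8 in p16cis/cis mice. The log2 difference of -2.65 passed the test (SE 0.64, limma, adjusted p = 0.0175), and only ApcMin/+ replicate 4 overlapped the other group. Igha had 393, 952, 959, 100 and 688 against 107.3, 191, 129 and 262, with a log2 difference of -1.55 that did not pass (limma, adjusted p = 0.0791). Ighm had 139, 673, 681, 10.2 and 535 against 68.2, 44.7, 93.2 and 54.8, and Igkc had 363, 1276, 1378, 62.3 and 751 against 208, 152, 298 and 216. Their log2 differences of -1.70 and -1.22 did not pass either (limma, adjusted p = 0.260 and 0.265). ApcMin/+ replicate 4 was below every p16cis/cis mouse in Ighm, Igkc and Igha. Igha held 62.3, 35.7, 37.6, 87.8 and 41.5% of heavy C reads in ApcMin/+ mice and 53.5, 72.3, 35.5 and 77.0% in p16cis/cis mice, and the groups overlapped.

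Iglc1 had a log2 difference of -1.83, Iglc2 of -1.07 and Iglc3 of -1.59 (limma, adjusted p = 0.0506, 0.479 and 0.311), and none passed. The 10 constant genes tested had a median log2 difference of -1.64, and all 10 had a lower mean in p16cis/cis mice. That median stands beside -0.0041 for all genes tested. None of the 10 was called by limma, with 4 at an unadjusted p under 0.05, and 4 were called by edgeR and 4 by DESeq2. Over all genes tested, edgeR (TMM normalization) called 265 lower and 252 higher, and DESeq2 called 322 and 277. The summed level of the constant gene list was 9.13 to 239 RPM against 19.97 to 31.9 RPM.

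Of the B cell list, 17 of 17 genes were tested and had a lower mean in p16cis/cis mice, with a median log2 difference of -1.98. The summed level of the list was 2.16 to 104 RPM in ApcMin/+ and 5.03 to 25.0 RPM in p16cis/cis mice, and no gene of it was at 0 in all mice. The test was passed by 1 gene, Cr2, the complement receptor of mature B cells, with 49.6 ± 43.4 (SD, n = 5) against 2.97 ± 4.09 (SD, n = 4) normalized counts and a log2 fold change of -3.42 (limma, adjusted p = 0.0308). Of the plasma cell list, 10 of 13 genes were tested, 2 were called lower and 1 higher, with a median of -0.83. Besides Jchain, Prdm1, the transcription factor that drives plasma cell differentiation, was called lower (-1.36, limma, adjusted p = 0.0121), and Fkbp11, an isomerase of the secretory pathway, was called higher (1.22, limma, adjusted p = 0.00532). The 4 germinal center genes tested had a median of -0.14 and none was called by limma, edgeR or DESeq2 or had an unadjusted p under 0.05 in limma. The summed level of the plasma cell list was 915 to 1237 RPM against 730 to 892 RPM, without overlap, but Txndc5, Xbp1 and Sdc1, which epithelial cells also express, held 96.7% of its reads. The other 10 genes summed to 16.3 to 50.5 RPM in ApcMin/+ mice, with replicate 4 the lowest. In p16cis/cis mice they summed to 19.5 to 32.3 RPM, so the sums overlapped. Of these 10, Fkbp11, the gene called higher, had the most reads (2317 over all mice), followed by Jchain (776). The sum was not taken without Fkbp11, so nothing is read from this overlap. RPM is scaled to totals that include mitochondrial reads, whose share was higher in every p16cis/cis mouse. The sums of the list were not taken without these reads, so nothing is read from the lack of overlap. Rag1 and Rag2, the enzymes that cut V, D and J segments during joining, had 0 reads in all 9 mice, and none of the 7 recombination genes listed was high enough to be tested.

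These counts depended on ApcMin/+ replicate 4. Over the B-lineage lists together 3 genes were called lower and 1 higher, and without ApcMin/+ replicate 4 it was 25 and 1. Without p16cis/cis replicate 3 it was 5 and 1. Over all genes tested, 237 were called lower and 264 higher. That became 432 and 323 without ApcMin/+ replicate 4, and 251 and 272 without p16cis/cis replicate 3. Cr2 did not pass the threshold in 8 of its 18 alternatives, Prdm1 passed in 17 of 18 and not in females alone (limma, adjusted p = 0.151), and Jchain and Fkbp11 passed in all 18.

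Markers of other cell types were examined in the same libraries. T cell genes had a median log2 difference of -0.21 with 0 of 9 called by limma, edgeR or DESeq2 and 0 at an unadjusted p under 0.05 in limma, and their summed level was 6.47 to 58.3 RPM in ApcMin/+ mice and 17.2 to 25.1 in p16cis/cis mice. Stroma and vessel genes had a median of -1.45 with 1 of 8 called lower, Col3a1, a fibrillar collagen (-2.92, limma, adjusted p = 0.0414, past the threshold in 10 of 18 alternatives with a highest adjusted p of 0.110), and summed levels of 7.36 to 41.4 against 4.81 to 11.8. Epithelial genes had a median of -0.17 with 1 of 10 called lower, Slc26a3, a chloride exchanger of colonocytes (-1.23, limma, adjusted p = 0.00848, and 0.135 in females alone, the only 1 of 18 alternatives in which it did not pass). Their summed level of 22053 to 33733 against 18810 to 20970 RPM did not overlap between the groups. The RPM total includes mitochondrial reads, whose share was higher in every p16cis/cis mouse. The epithelial sum was not taken without these reads, so nothing is read from the lack of overlap. Genes that support IgA, such as its epithelial transporter Pigr, had a median of -0.06 with 0 of 7 called by limma, edgeR or DESeq2 and 0 at an unadjusted p under 0.05 in limma. ApcMin/+ replicate 4 had the lowest summed level of the B cell, T cell and constant gene lists (2.16, 6.47 and 9.13 RPM) and the highest of the epithelial list. Without this mouse, 8 genes of the T cell, epithelial, stroma and IgA support lists were called lower rather than 2. Over all genes tested it was 432 rather than 237. The part of other cell types in the level of the V segments was not tested.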

How the data were processed

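The samples were colonic mucosa of 5 ApcMin/+ and 4 ApcMin/+; p16cis/cis mice, profiled by RNA-seq and grouped by the genotype in the labels. The authors sequenced on the BGISEQ-500, aligned with BOWTIE2, computed gene levels with RSEM and compared groups with DESeq2. The build, annotation and versions are not given in the sources used here. The authors deposited 1 table of signal values, gene counts divided by a size factor per mouse. Dividing by the value of 1 read gave whole reads for 100% of positive values, and 13523500 to 17885918 reads on genes per mouse. The libraries carry no known molecular identifiers, so intervals (exact binomial) and floors of 3 reads cover counting error only.

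The members and gene lists were chosen with earlier results of these data known. Genotypes were compared with limma 3.58.1 in R 4.3.3 on log2(normalized count + 1), with trended variances and Benjamini-Hochberg adjustment over 14410 genes. A call needed an adjusted p under 0.05 and a fold change over 2. The fit was tested on simulated data. Totals, shares, breadth, dominance and similarity are descriptions without a test. Shares in dominance and similarity needed 20 reads of a chain, a limit set after the reads were seen, as were the number of reads for equal depth and the share of V in V and C reads. Named were all members, leading segments, the Ig genes of the lists and called list genes. Coordinates and sequences came from GENCODE M21 (GRCm38), and identities from Biopython 1.88. Alternatives included count tests of the recovered reads in edgeR 4.0.16 and in DESeq2 1.42.0.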

Additional observations from a re-analysis of the deposited data

Results flagged for a closer look

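In groups of 4 or 5 mice, the highest or lowest mouse was called far from the others where its gap to the nearest mouse exceeded Dixon's 95% critical value. For normally distributed values, chance gives this in about 1 of 20 groups. That rate does not hold for counts of a few reads, where any value passes if all other mice are at 0. Over 37 measures, 9 values passed, of which 1 was in an ApcMin/+ mouse.

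The lambda share of member reads in ApcMin/+ replicate 1 was 55.6%, against 10 to 23.1% in the other ApcMin/+ mice. It rested on 30 of 54 reads, 29 of them Iglv1.

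The other 8 were in p16cis/cis mice, and 6 of them were member values set by a few reads. Igkv1-110 was 0 in replicate 1 against 1.503 to 1.60 in the others, Igkv1-117 was 1.503 in replicate 3, Igkv10-96 and Igkv19-93 were both 1.26 and Igkv12-46 was 2.53 in replicate 1, and Ighv6-3 was 1.57 in replicate 4, each of these 5 against 0 in the others. The share of V in heavy V and C reads was 5.68% in replicate 2 against 3.64 to 3.98%, and Iglc2 was 12.02 in replicate 3 against 3.19 to 4.70 normalized counts.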

How the results depend on the processing

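The p16cis/cis mice and ApcMin/+ replicate 4 held 12 to 24 V reads each, so their shares are imprecise, and all members passed the rule through ApcMin/+ mice alone. The causes of the changes listed here were not tested unless the alternative is built on other reads or genes.

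With every V segment in place of the members, means changed as follows. The total level became 24.6 RPM in ApcMin/+ and 1.40 in p16cis/cis mice, the ApcMin/+ heavy share 40.4%, the leading heavy segment 13.6% and the leading kappa segment 9.79%, the effective numbers 22.3 (heavy) and 29.5 (kappa), and the mean distances between mice 0.570 (heavy) and 0.465 (kappa). In normalized counts the totals were 139 and 8.94, and with mitochondrial genes left out of the total the p16cis/cis level was 0.559. Among constant genes the ApcMin/+ shares were 63.6% heavy, 32.9% kappa and 3.51% lambda. The ApcMin/+ kappa share was 76.9% without the leading segments and 39.8% in females. The number of members was 0 at 50 reads in ApcMin/+ mice and 4 at 1 read in p16cis/cis mice. Pooled by family, the leading kappa share was 39.997% and the effective number 4.14. The mean Spearman correlation of heavy usage was -0.20. Added after the data were seen, every mouse with a read gave mean distances of 0.645 (heavy) and 0.622 (kappa), and the V share of V and C reads was 5.73% against 1.67% for members alone, 10.1% for other V segments and 16.3% with J reads in ApcMin/+ mice.

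Of all genes, 104 were called lower in females, 1261 lower and 1173 higher without the fold threshold, and 158 higher with sex as a covariate. Leaving out each mouse gave 144 to 432 lower and 131 to 323 higher, with the extremes without ApcMin/+ replicates 3 and 4 and p16cis/cis replicate 4. Replicate numbers name different mice, and the correlations of same-numbered mice (-0.175, 0.066, 0.046 and 0.142) do not pair them. With the replicate block 234 genes were lower and 239 higher, and 8 B-lineage genes were lower. Members called lower numbered 2 with values of at least 10 in at least 2 mice (1.65% of all genes tested), 3 with no filter (1.01%) and 1 in the other alternatives, and the choice of members fixes this direction. B-lineage genes called lower numbered 10 with edgeR (TMM or RLE) and 15 with DESeq2, and 2 to 25 with each mouse left out. Over all genes, edgeR called 265 lower and 252 higher with TMM and 263 and 255 with RLE, and DESeq2 called 322 and 277. Genes of other lists called lower numbered 4 with no filter, 1 with a pseudocount of 0.1, and 1 to 8 with each mouse left out. Over all genes, no filter gave 302 lower and 256 higher, and the pseudocount of 0.1 gave 220 and 253. In all, 265 of 319 alternative values of these results stayed within 1 SD or 1.5 times of the main value, and no named gene changed direction.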
